A study of Mus musculus with 4 samples.

Results

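The replication-dependent histone genes were followed in fetal liver cells that had been infected with either of 2 retroviruses, EMPTY or *Mir195*, on 4 single-dye Agilent arrays of the mouse, 2 for each virus. A probe was counted as a histone probe when the gene name given by the array design started with Hist1h, Hist2h, Hist3h or Hist4h, and control spots were left out. This rule gave 51 probes of 47 genes, out of 39429 probes with 31829 gene names on the array. The rule used names and no measured value. All 4 samples were Lin- cells from the fetal livers of *Ebf1*-/- mice, so the deletion of *Ebf1*, a transcription factor needed for B cell development, was shared by both viruses. The EMPTY virus is a retrovirus that carries the marker GFP alone, and the *Mir195* virus carries GFP and the microRNA miR-195. The medium held Flt-ligand, SCF and IL-7 at 10 ng/mL each, the cells grew on OP9 stroma cells according to the methods, and the labels place them in the early B lineage, near the pro-B cell. For each array, 100 ng of RNA was labelled. The labels number 2 replicates for each virus but do not say that they came from separate cultures or animals, so the p-values measure the spread between these samples, which may be technical.

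Replication-dependent histone genes encode the H2A, H2B, H3 and H4 proteins around which newly copied DNA is wrapped, and the linker H1 that binds where the DNA enters and leaves this particle. The genes lie in clusters, have no introns, and are transcribed in S phase, when their RNA rises to high levels and falls again as DNA synthesis ends. Their messenger RNAs end in a short stem-loop instead of a poly(A) tail. SLBP binds the stem-loop, and U7 snRNP with its proteins LSM10 and LSM11 guides the cut behind it. Some members also make polyadenylated RNA in cells that have left the cycle, and testis forms of H1, H2A and H2B are used while sperm mature. In RNA from whole cultures, fewer cells of a type and less RNA per cell cannot be told apart.

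The stem-loop itself lay within 5 of the 51 probes, each of which is 60 bases long. These stretches are shown because they carry the element that defines the family. The stem-loop of 16 bases, a stem of 6 pairs closed by a loop of 4 bases, is in capitals, and the sequences are those of the array design, 5′ to 3′ in the sense of the messenger RNA.
Hist1h3a: aaccaaaGGCTCTTTTCAGAGCCaca
Hist1h3i: aacaaaaGGCTCTTTTCAGAGCCccctc
Hist2h2bb: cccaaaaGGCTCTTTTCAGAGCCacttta
Hist2h2aa1: taaaaaGGCTCTTTTCAGAGCCacccact
Hist1h3g: ctttaaaGGCTCTTCTTAGAGCCaccca
The same 16 bases stood in 4 of them, from an H3, an H2A and an H2B gene alike, and on the whole array in no other probe. *Hist1h3g* held a variant with another loop. In the probes of *Hist1h3a*, *Hist1h3i*, *Hist1h3g* and *Hist2h2bb* the stem-loop was followed by 3 to 6 bases. The probe of *Hist2h2aa1* began near the stem-loop and ran on for 38 bases behind it.

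The second set of sequences shows how closely the coding parts of the H2A genes resemble each other. The H2A probes below end with the stop codon. Capitals mark the letters TGCTGCT, the reverse complement of bases 2 to 8 of miR-195, the microRNA in the virus. The microRNA of the mouse gene is printed first with these seed bases in capitals (RefSeq, GRCm38.p6, chr11:70235062-70235082, + strand). The methods give the same mature sequence for the virus.
mmu-miR-195a-5p: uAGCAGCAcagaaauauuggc
Hist1h2af: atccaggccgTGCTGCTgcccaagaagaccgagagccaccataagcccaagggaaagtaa
Hist1h2ak: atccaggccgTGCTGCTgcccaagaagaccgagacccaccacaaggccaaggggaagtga
Hist2h2aa2: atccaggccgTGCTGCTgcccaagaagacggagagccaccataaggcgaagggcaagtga
Hist1h2an: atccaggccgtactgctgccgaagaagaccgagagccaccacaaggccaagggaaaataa
Hist1h2ah: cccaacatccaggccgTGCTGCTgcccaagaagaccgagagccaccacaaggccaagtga
Hist2h2ac: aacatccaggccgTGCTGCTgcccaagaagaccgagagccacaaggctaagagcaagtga
Hist1h2be: acctccaagccTGCTGCTgtactgttcat
In 6 of the 51 histone probes (11.8%) these letters were present, against 317 of all 39429 probes (0.804%). Of these, 5 lay in the coding end that the H2A genes share. The other was that of *Hist1h2be*, of which only the bases around the match are shown. The match was looked for after the sequences had been seen and is a description of the probes, not of sites in the whole messenger RNA. *Hist1h2af*, *Hist1h2ag*, *Hist1h2ah*, *Hist1h2ak*, *Hist1h2an* and *Hist2h2aa2* formed a family of 6 probes with 87.5 to 95.8% identity in 14 pairs, and *Hist1h4c*, *Hist1h4d*, *Hist1h4j* and *Hist1h4k* a family of 4 with 85.4 to 95.8%. Such probes may bind RNA of each other's genes, so that their values are uncertain for the single gene and are not independent of each other.

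By accession, 50 of the 51 probes matched a gene of the GRCm38.p6 annotation. The Hist1 cluster on chromosome 13 held 34 of the genes, chromosome 3 held 9 genes of the Hist2 cluster, chromosome 11 held *Hist3h2a* and *Hist3h2ba*, and chromosome 6 held *Hist4h4*. *Hist3h2bb* was not matched. The genes of 46 probes spanned 375 to 903 bases. The annotated spans of *Hist2h2be*, *Hist1h2bc*, *Hist1h2bp* and *Hist1h2be* were longer, with 2667, 8282, 14079 and 37455 bases.

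The promoters of the histone genes were searched for elements known from this family. The motifs were TATAAA, which places the start of transcription, CCAAT, the octamer ATTTGCAT bound by OCT1, and AAACACA, the box known from H1 promoters. Both strands were read from 250 bases before to 50 bases after the start, and no motif contains another. RefSeq promoters were given for 41 of the 46 matched genes. A histone gene was counted when any of its promoters held the motif, whereas the share over all promoters counted each promoter singly. TATAAA stood in 25 of them (61%) against 13.6% of all 32851 promoters, and CCAAT in 36 (87.8%) against 37.4%. The octamer was found in 6 of 8 H2B and 7 of 14 H2A promoters, in no promoter of H1, H3 or H4, and in 1.74% of all promoters. Neighbouring H2A and H2B genes can share such a window, so the same octamer may be counted in both classes. For example, the window of *Hist1h2ac* reached chr13:23684209, and the annotated span of *Hist1h2bc* begins at 23684199. AAACACA was present in 5 of 6 H1 promoters, 2 of 14 H2A and 2 of 8 H2B promoters, against 7.18% of all. H4 promoters held CCAAT in 2 of 7 cases, whereas every H1, H2A, H2B and H3 promoter held it.

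**Figure D1:**
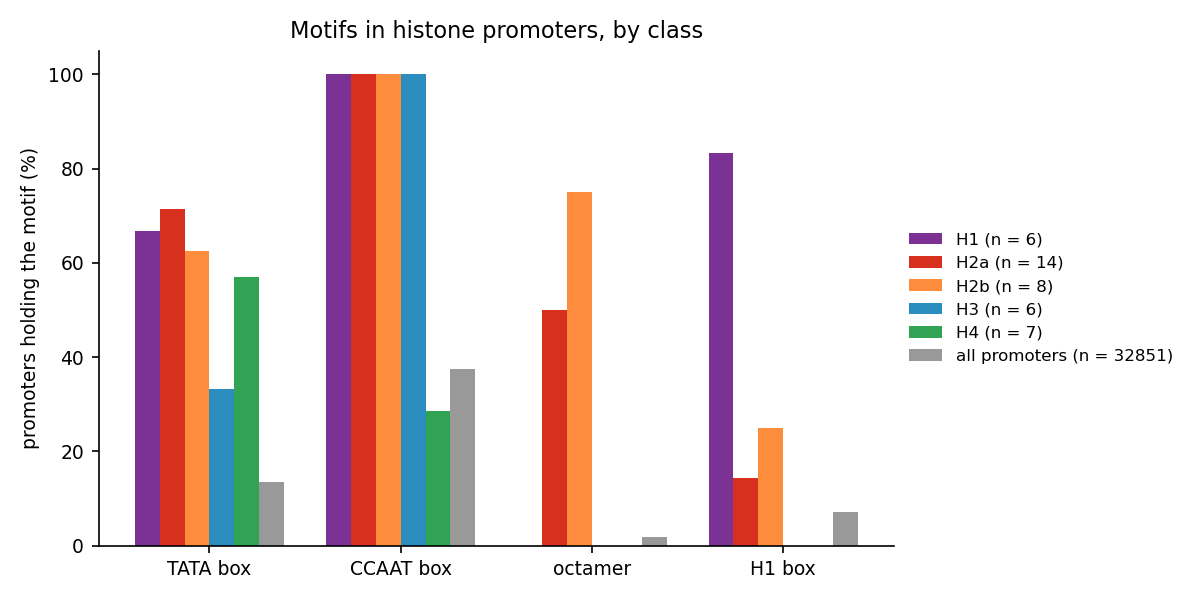
The y axis gives the percentage of promoters that hold each motif on either strand. The bars stand for the 5 histone classes, counted by gene, and, in grey, for all 32851 promoters, counted singly. The octamer bars of H2A and H2B reach 50% and 75% and the H1 box bar of H1 reaches 83.3%, while H4 is the class with the lowest CCAAT bar.

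Upstream stretches of 250 bases are shown for *Hist1h1b* (H1, GRCm38.p6, chr13:21780626-21780875, - strand), *Hist1h2ac* (H2A, chr13:23683960-23684209, - strand) and *Hist1h4d* (H4, chr13:23581318-23581567, + strand), because they hold the octamer, the H1 box and neither side by side. With its CCAAT, *Hist1h4d* is among the 2 of 7 in its class. Capitals mark the motifs on either strand.
Hist1h1b: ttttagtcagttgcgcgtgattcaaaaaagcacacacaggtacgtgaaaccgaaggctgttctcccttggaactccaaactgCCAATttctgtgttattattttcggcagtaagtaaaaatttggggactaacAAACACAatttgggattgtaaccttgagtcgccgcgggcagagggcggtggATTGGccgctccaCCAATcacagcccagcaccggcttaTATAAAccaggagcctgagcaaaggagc
Hist1h2ac: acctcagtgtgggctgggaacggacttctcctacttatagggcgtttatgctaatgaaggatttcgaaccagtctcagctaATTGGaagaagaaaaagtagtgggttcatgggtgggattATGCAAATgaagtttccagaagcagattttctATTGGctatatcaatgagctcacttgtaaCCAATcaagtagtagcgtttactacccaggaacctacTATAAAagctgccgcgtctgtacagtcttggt
Hist1h4d: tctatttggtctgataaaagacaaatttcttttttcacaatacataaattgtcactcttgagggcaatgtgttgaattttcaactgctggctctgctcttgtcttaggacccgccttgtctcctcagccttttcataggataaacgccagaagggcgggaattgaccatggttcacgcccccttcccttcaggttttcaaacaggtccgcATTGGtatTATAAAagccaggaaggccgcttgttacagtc
In all 3 the TATAAA began 28 to 32 bases before the start. The H1 box of *Hist1h1b* began 117 bases before the start and the octamer of *Hist1h2ac*, on the opposite strand, 130 bases before it.

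Between 23678 and 24701 probes were well above background per array, with a 75th percentile of the signal of 902 to 1130 over a local background of 38 to 39. The 4 arrays shared 1 slide, on which EMPTY took the first positions and *Mir195* the last, and position and virus cannot be told apart. *Ebf1* was well above background on every array, and whether its probe lies in the disrupted part was not examined. Of 14 markers of progenitors and early B cells, 12 were tested. Over all probes tested, *Mir195* replicate 2 correlated with the other arrays with r = 0.983 to 0.987, and the other arrays among themselves with r = 0.994 to 0.997.

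Histone RNA was detected nearly throughout. Of the 51 histone probes, 49 (96.1%) were well above background on all 4 arrays, compared with 57.5% of all probes. *Hist1h1d* was above background on no array, and *Hist1h2bp* on EMPTY replicate 2 and *Mir195* replicate 2 alone. No histone probe was lost on a single array, and none was detected with 1 virus and absent with the other. The 49 probes entered the comparison together with all other probes detected on the 2 arrays of either virus or of both, 23723 in total. They comprised 5 probes of H1, 15 of H2A, 10 of H2B, 8 of H3 and 11 of H4.

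To examine whether miR-195 altered histone expression in the *Ebf1*-/- cells, each probe's log2 signal, set against the 75th percentile of its array, was compared between the viruses. No histone probe passed an adjusted p of 0.05 in limma with Benjamini-Hochberg adjustment, where the share over all probes was likewise 0%, and the lowest adjusted p of a histone probe was 0.54. The log2 fold changes ranged from -0.41 to 0.56 with standard errors of 0.12 to 0.32, and 24 were above 0 and 25 below. Their median was 0.00, beside 0.01 over all probes tested. With each array scaled by its median, 7 were above 0 and 42 below, but the median over all probes also moved, to -0.08 beside -0.1 for the histone probes. In the table normalized by the authors 18 were above 0 and 31 below, with medians of 0 over all probes and -0.04 for the histone probes. The split turned on single arrays, with 6 above 0 without *Mir195* replicate 1 and 45 above 0 without *Mir195* replicate 2. Without adjustment, 2 of 49 histone probes (4.08%) were higher with *Mir195* at a p under 0.05 against 6.25% of all probes, and 0 were lower against 2.1%. For 4 histone probes the *Mir195* arrays were both above the EMPTY arrays (8.16%, against 23.4% of all probes) and for 2 both were below (4.08%, against 14.4%). The groups overlapped for the other 43. With 2 arrays per virus, the smallest p that exact permutation allows is 0.333 (two-sided), and the number of arrays limits the precision.

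**Figure D2:**
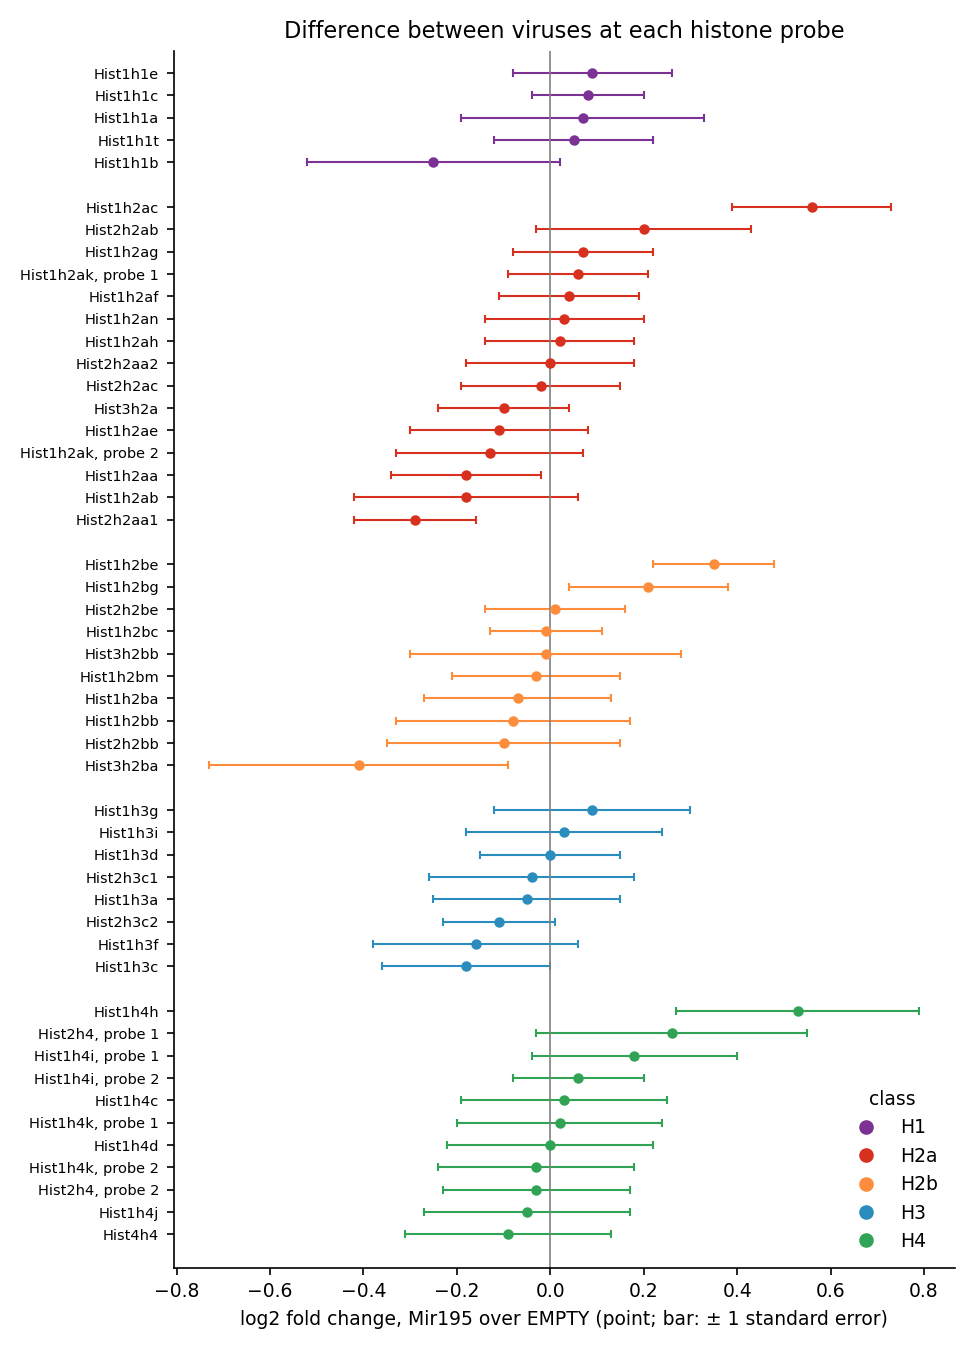
Each of the 49 tested histone probes is a row, the x axis gives the log2 fold change of *Mir195* over EMPTY, the points are coloured by class, and the bars show 1 standard error from limma to each side. The points lie on both sides of 0, from -0.41 for *Hist3h2ba* to 0.56 for *Hist1h2ac*.

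Of the 5 probes of the linker histone H1, 4 had log2 fold changes above 0, from 0.05 to 0.09, and 1 below, and none passed the test. *Hist1h1b*, a somatic linker histone, gave log2 signals of 4.31 and 4.45 with EMPTY and 4.50 and 3.75 with *Mir195*. It was thus lowest on *Mir195* replicate 2, while replicate 1 lay level with the EMPTY arrays, and the log2 fold change was -0.25 (standard error 0.27, 95% confidence interval -0.97 to 0.46). *Hist1h1a*, another somatic H1, measured 1.87 and 2.15 with EMPTY and 2.41 and 1.76 with *Mir195*. For *Hist1h1e* the values were 4.10, 4.19, 4.43 and 4.03 in the same order. In both, the groups overlapped. *Hist1h1c*, a further somatic H1, stood at 0.32 and 0.19 with EMPTY and at 0.33 and 0.34 with *Mir195*. Its *Mir195* arrays were above both EMPTY arrays, although by only 0.01 over EMPTY replicate 1. *Hist1h1t*, the testis linker, was well above background on every array, at -4.31, -4.14, -4.0 and -4.35. The median log2 fold change of the 5 H1 probes was 0.07, with the adjusted p from limma between 0.895 and 0.971.

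Among the H2A probes, the largest difference was that of *Hist1h2ac*, a gene of the Hist1 cluster, which also passed before adjustment only. It measured -4.19 and -4.32 with EMPTY and -3.89 and -3.50 with *Mir195*, so the groups did not overlap. The log2 fold change was 0.56 (standard error 0.17, 95% confidence interval 0.10 to 1.01, adjusted p = 0.54 from limma). It was 0.36 without *Mir195* replicate 2. The opposite was seen for *Hist2h2aa1*, whose probe runs past the stem-loop shown above, with 1.89 and 1.86 against 1.68 and 1.49. Both of its *Mir195* arrays were below both EMPTY values, at -0.29 for the log2 fold change and an adjusted p of 0.652 from limma. *Hist2h2ab* stood at -3.78 and -3.47 with EMPTY and at -3.16 and -3.68 with *Mir195*. The testis form *Hist1h2aa* measured -1.13, -1.18, -1.17 and -1.50. Its *Mir195* replicate 1 fell between the EMPTY arrays.

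The coding ends of the H2A family printed above gave almost the same value with either virus. *Hist1h2af*, for example, measured 8.28 and 8.42 with EMPTY and 8.53 and 8.25 with *Mir195*. Over the 6 probes of the family, the log2 fold changes lay between 0.00 and 0.07. The 5 H2A probes that hold the letters complementary to the seed gave -0.02 to 0.06. In the family, the probes of *Hist1h2an* and *Hist1h2ag*, which lack them, gave 0.03 and 0.07. As these probes may bind each other's RNA, the values cannot separate genes with the letters from genes without. An effect of the seed was not tested. The median over all 15 H2A probes was 0.00, with 8 above 0 and 7 below.

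Among the H2B probes, *Hist1h2be* had the largest difference in the direction of *Mir195*, and passed the threshold before adjustment only. The values were -3.77 and -3.66 with EMPTY and -3.45 and -3.29 with *Mir195*. These groups did not overlap, and the log2 fold change was 0.35 (standard error 0.13, 95% confidence interval 0.01 to 0.69, adjusted p = 0.587 from limma). This is the probe with the seed match outside the H2A coding end and the gene with the longest annotated span. *Hist3h2ba* had the lowest log2 fold change of the family, -0.41 with a standard error of 0.32, from 0.17 and 0.51 with EMPTY and 0.36 and -0.49 with *Mir195*. That value rested on *Mir195* replicate 2, without which it was 0.02. *Hist1h2bg* measured -1.91, -1.54, -1.55 and -1.50, and *Hist2h2bb* 2.07, 2.35, 2.41 and 1.80. For *Hist1h2ba*, the testis H2B, the values were 2.68 and 2.89 with EMPTY and 2.96 and 2.48 with *Mir195*. The 10 H2B probes had a median of -0.02, with 3 above 0 and 7 below.

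No H3 or H4 probe passed the test between the viruses, with standard errors of 0.12 to 0.22 for H3 and 0.14 to 0.29 for H4. The 8 H3 probes ranged from -0.18 for *Hist1h3c* (1.89, 1.96, 1.96 and 1.53 on the 4 arrays) to 0.09 for *Hist1h3g* (-1.04, -0.73, -0.57 and -1.01), with a median of -0.05. *Hist1h3i* measured -0.22, -0.08, 0.14 and -0.38, and *Hist1h3f* 0.02, 0.19, 0.23 and -0.34. Every H3 group overlapped except that of *Hist2h3c2*, at -2.58 and -2.50 with EMPTY and -2.68 and -2.62 with *Mir195*. The H4 probes had a median of 0.02. Of these, *Hist1h4h* stood apart with -3.50 and -3.17 with EMPTY and -3.13 and -2.47 with *Mir195*. Its arrays did not overlap, by 0.04 between the nearest. The estimate was 0.53 on the log2 scale with a standard error of 0.26, and limma gave an adjusted p of 0.705. Without *Mir195* replicate 2 it was 0.20, and without *Mir195* replicate 1 it was 0.86. The lowest H4 value was that of *Hist4h4*, with -0.09 from 4.72, 5.02, 5.03 and 4.54, followed by *Hist1h4j* with -0.05 from 2.37, 2.68, 2.71 and 2.24.

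For 4 genes with 2 probes each, the log2 fold changes of the probes differed by at most 0.29. The widest gap was in *Hist2h4*, where 1 probe measured 6.61 and 6.93 with EMPTY and 6.94 and 6.54 with *Mir195*, and the other -4.02, -3.65, -3.21 and -3.93. Both probes overlapped between the viruses. In *Hist1h2ak* the probes differed by 0.19, in *Hist1h4i* by 0.12 and in *Hist1h4k* by 0.05.

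For most histone probes the replicates of 1 virus were further apart than the viruses. Within the EMPTY virus, replicate 2 was above replicate 1 for 44 of 49 histone probes (89.8%), against 62.3% of all probes, with a median difference of 0.21 against 0.06. Within the *Mir195* virus, replicate 1 was above replicate 2 for 42 of 49 (85.7%), against 52.3% of all probes, with a median difference of 0.40 against 0.02. Both held for 40 histone probes (81.6%) and for 39.4% of all probes. For 36 of the 49, the difference between the viruses was smaller than both differences between replicates, as it was for 9853 of all 23723 probes. The former is between means of 2 arrays and the latter between single arrays, so the former varies less even without an effect. With 1 array on each side the replicate differences have no replicate and no test. Their directions were chosen after the values had been seen, and the probes counted are not replicates of each other.

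**Figure D3:**
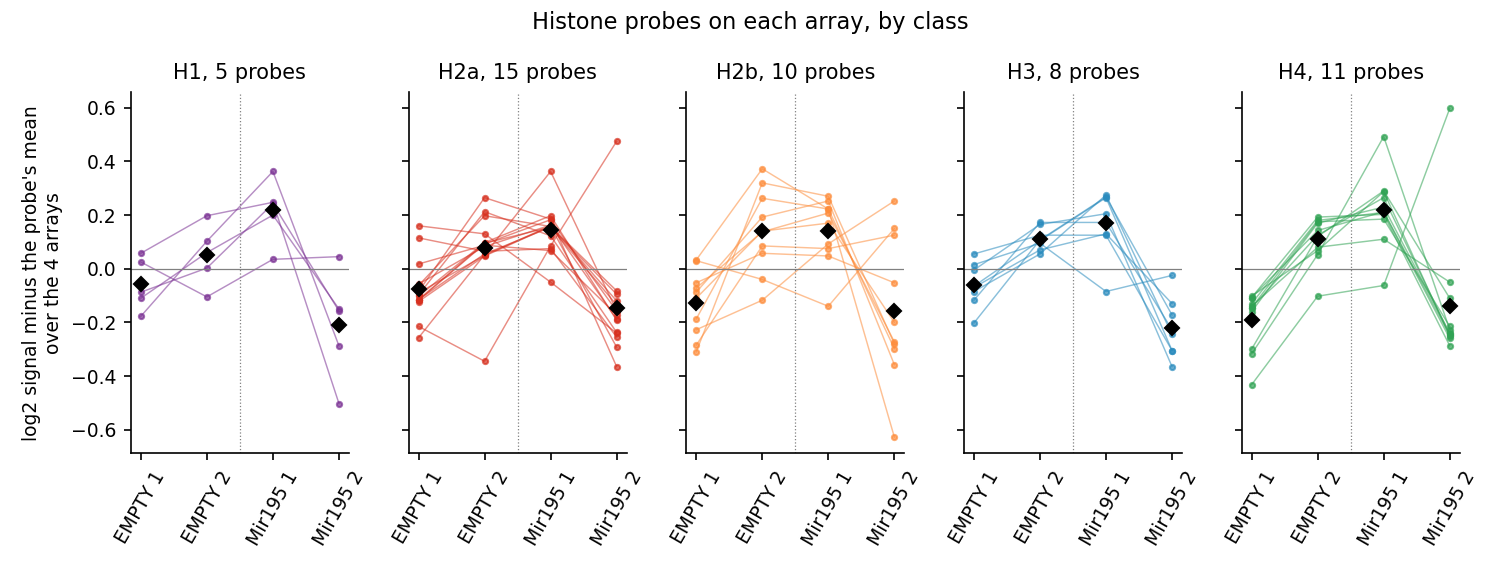
Each panel is a histone class and each line 1 of its probes, with the log2 signal minus the mean of that probe over the 4 arrays on the y axis, the arrays along the x axis, and black diamonds for the class mean. In every class the diamonds are higher on EMPTY 2 than on EMPTY 1 and higher on *Mir195* 1 than on *Mir195* 2.

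All 5 classes took part. Over the H4 probes the mean log2 signal was 2.35 and 2.65 with EMPTY and 2.76 and 2.40 with *Mir195*. For H3 it was 0.88, 1.05, 1.1 and 0.71, and for H2A 4.17, 4.32, 4.39 and 4.10. H2B, at -0.34, -0.08, -0.08 and -0.37, and H1, at 1.26, 1.37, 1.54 and 1.1, followed the same course, while the mean over all probes tested stayed between -0.75 and -0.69. By their medians the differences were largest in H4, where replicate 2 of EMPTY was above replicate 1 for 11 of 11 probes with a median of 0.31, and replicate 1 of *Mir195* above replicate 2 for 10 of 11 with a median of 0.47. *Mir195* replicate 1 was the highest array for 32 of the 49 probes, against 5207 of all 23723 probes tested. *Mir195* replicate 2 was the lowest for 34 of the 49, against 8076 of all 23723.

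The counts were also taken without the probes of the families, which were joined at an identity of at least 80% over at least 40 bases, without gaps. *Hist2h2ac* did not reach this with the H2A family and stayed among the probes outside. Its probe nevertheless shares a long stretch with that of *Hist1h2ah*, as the sequences above show, so near-identical probes were not wholly removed. Outside the families of 6 and 4 probes, EMPTY replicate 2 was higher for 34 of 39 probes and *Mir195* replicate 1 for 32 of 39, with medians of 0.22 and 0.40. With each family counted as 1, the numbers were 36 and 34 of 41. Among the probes with the stem-loop, the 4 in which it lies near the end gave differences of 0.15 to 0.31 between the EMPTY arrays and of 0.40 to 0.62 between the *Mir195* arrays. The probe of *Hist2h2aa1*, which reaches 38 bases past the stem-loop, gave -0.03 and 0.19.

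The 9 probes that did not have both differences above 0 were *Hist1h1c*, *Hist1h2aa*, *Hist1h2ac*, *Hist2h2aa1*, *Hist1h2be*, *Hist1h2bg*, *Hist2h2be*, *Hist2h3c2* and *Hist1h4h*. They were named after their values had been seen. All 6 probes whose arrays did not overlap between the viruses were among them. In *Hist1h2ac*, *Hist2h2be* and *Hist1h1c* both differences were turned, with -0.13, -0.07 and -0.13 between the EMPTY arrays and -0.38, -0.30 and -0.01 between the *Mir195* arrays. *Hist1h4h* followed on the EMPTY side, with 0.33, and was turned on the *Mir195* side, with -0.66. Some were listed through a difference near 0. In *Hist1h2aa* and *Hist2h2aa1* only the EMPTY difference was below 0, at -0.04 and -0.03. In *Hist1h2bg* and *Hist2h3c2* only the *Mir195* difference was, at -0.05 and -0.06. Among the 3 tested genes with an annotated span above 1000 bases, *Hist1h2bc* gave 0.11 and 0.10, *Hist1h2be* 0.10 and -0.16 and *Hist2h2be* -0.07 and -0.30. For the probes of genes with a shorter span, both differences were above 0 in 38 of 45.

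**Figure D4:**
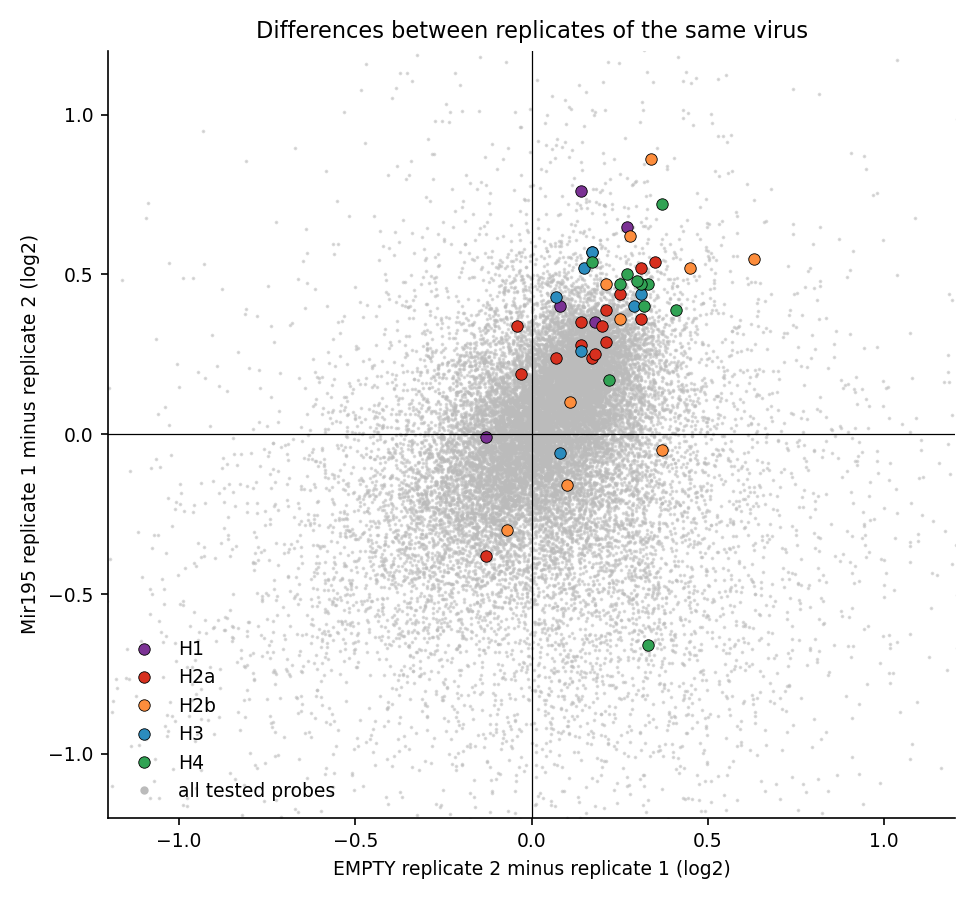
The x axis gives EMPTY replicate 2 minus replicate 1 and the y axis *Mir195* replicate 1 minus replicate 2, both on the log2 scale, with all 23723 tested probes in grey and the histone probes coloured by class. Of the histone probes, 40 lie above 0 on both axes, and 532 of all probes fall outside the axes.

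Genes of the same processes were followed next, each by its tested probe with the highest mean signal. Of 22 genes of S phase, 20 were tested, and no one of them passed the test. *Ccne2* was above background on no array, and *Mcm4* had an outlier spot and was left out. The median log2 fold change was 0.02 (12 above 0, 8 below). EMPTY replicate 2 was above replicate 1 for 18 of the 20, with a median of 0.18, and *Mir195* replicate 1 above replicate 2 for 17, with a median of 0.15. *Tk1*, the thymidine kinase made in S phase, measured 2.72 and 3.01 with EMPTY and 2.94 and 2.52 with *Mir195*, and *Ccne1*, the cyclin that starts S phase, 2.40, 2.74, 2.73 and 2.43. Both had the course of the histones over the arrays. *Pcna*, the clamp of the replication fork, differed in the same directions by 0.07 and 0.06.

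The chaperones that carry new histones to DNA had smaller medians. For 14 of 18 the EMPTY arrays differed in the same direction as the histones, and for 14 the *Mir195* arrays, with medians of 0.09 and 0.14. *Chaf1b*, a subunit of the chromatin assembly factor CAF-1, measured 3.43 and 3.68 with EMPTY and 3.64 and 3.26 with *Mir195*. *Asf1b*, which hands H3 and H4 to it, stood at 2.74, 2.91, 2.76 and 2.5. The median log2 fold change between the viruses was 0.03, and none of the 18 passed the test in either direction.

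Replacement histones, most of which are made from polyadenylated RNA and also outside S phase, had replicate differences with medians of 0.18 for EMPTY and 0.21 for *Mir195*, above 0 in 9 of 10 on each side. Of 11 listed, 10 were tested, and *H1fx* was above background on no array. *H2afz*, the H2A variant at promoters, measured 7.0 and 7.21 with EMPTY and 7.14 and 6.87 with *Mir195*. *H2afx*, which is phosphorylated at DNA breaks, gave 4.09, 4.37, 4.18 and 3.76. *H2afv* gave 5.45, 5.77, 5.66 and 5.32. The probe of *H2afj*, at 8.28, 8.49, 8.54 and 8.14, is 80.9 to 90% identical to 5 histone probes of the H2A class over the 47 to 53 bases in which they overlap, and may bind their RNA. *H1f0*, the linker of resting cells, was turned the other way, with -2.88 and -3.51 against -3.39 and -3.11. For *H3f3a* the values were 5.64, 5.82, 5.75 and 5.56, for *H3f3b* 5.75, 5.93, 5.91 and 5.80, and for *Cenpa*, the centromeric H3, 2.90, 2.93, 2.87 and 2.64. The macroH2A genes *H2afy* and *H2afy2* had log2 fold changes of -0.03 and -0.05 between the viruses, with standard errors of 0.13 and 0.12. Over the 10 tested genes the median log2 fold change was -0.07, with 9 below 0 and 1 above, and none passed the test.

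Of 16 genes of the transcription and processing of histone RNA, 15 were tested and none passed. *Slbp*, whose product binds the stem-loop, measured 1.11 and 0.81 with EMPTY and 0.94 and 0.99 with *Mir195*. Its log2 fold change was 0.00 with a standard error of 0.15. *Npat*, the coactivator at histone loci, was well above background on no array. For *Casp8ap2* (FLASH), which works with it, the values were -0.33, -0.36, -0.30 and -0.07. *Lsm10* and *Lsm11* of U7 snRNP had log2 fold changes of -0.02 and -0.19, *Zfp473*, a zinc finger protein of the U7 complex, 0.21, and *Eri1*, the exonuclease that trims the stem-loop, 0.08. The median over the 15 genes was 0.00, and the replicate differences had medians of 0.03 and 0.06, with 8 and 9 of 15 above 0. Single genes went either way, with -0.29 between the EMPTY arrays for *Slbp*, and 0.27 for *Lsm11* and -0.23 for *Casp8ap2* between the *Mir195* arrays.

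**Figure D5:**
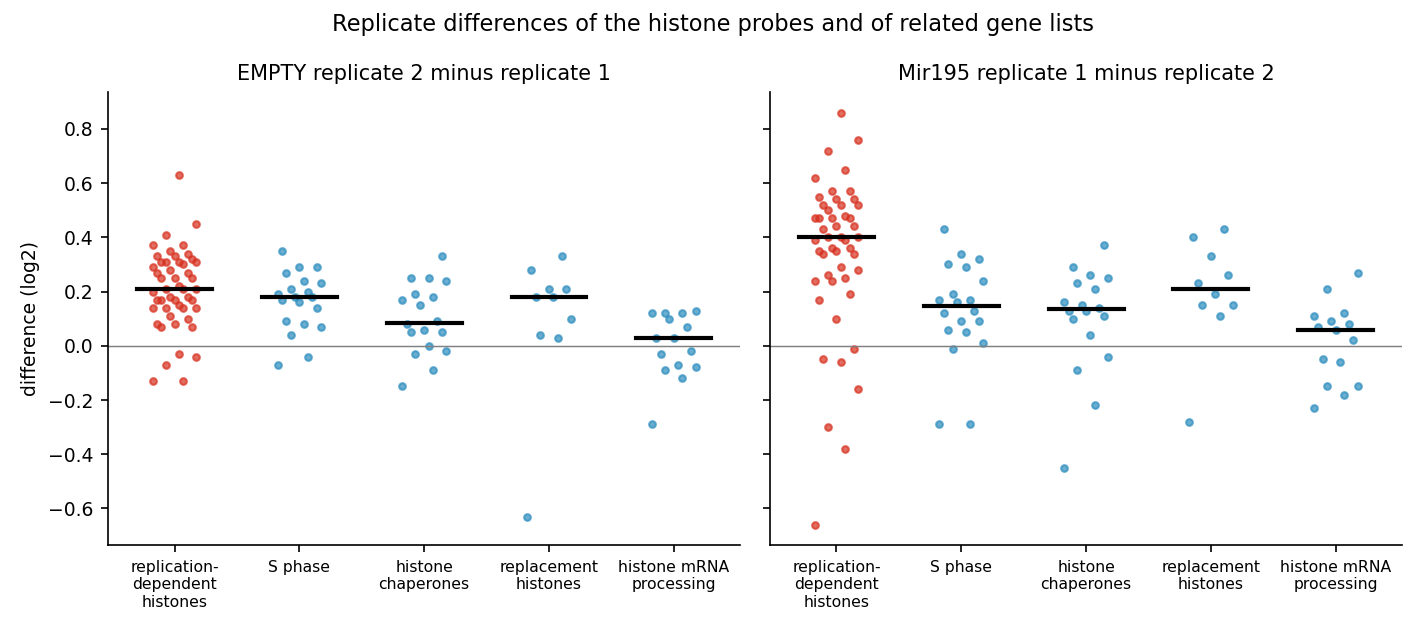
Each point is a histone probe (red) or a gene of a list (blue), the y axis gives the difference between replicates on the log2 scale, for EMPTY on the left and for *Mir195* on the right, and black bars mark medians. The histone medians are 0.21 and 0.40, and those of the processing genes 0.03 and 0.06.

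RNA of other cells also differed between the replicates. Of 10 markers of stroma cells such as OP9, 6 were tested, and all 6 were lower on *Mir195* replicate 1 than on replicate 2, with a median of -0.97. The summed level of the 10 was 3.53 and 3.61 with EMPTY and 3.41 and 4.37 with *Mir195* (log2 of the sum of signals relative to the 75th percentile), while *Lum*, *Dcn*, *Pdgfra* and *Postn* were above background on no array. The same sum over 7 erythroid genes, of which 4 were tested, was 1.36, 1.83, 1.81 and 0.98. *Hbb-b1* made up most of it, with 1.19, 1.72, 1.70 and 0.77, while *Hba-a1* measured -2.76, -3.84, -4.05 and -3.70, and 2 of the 4 had both differences in the direction of the histones. For 8 myeloid genes it was 3.41, 3.67, 3.71 and 3.74, with *S100a8* and *S100a9* below background, and for 8 T and NK cell genes 5.72 to 5.88, most of it from *Lck*. Of these 8, 3 were higher on EMPTY replicate 2 than on replicate 1, with a median of -0.30. All 8 had log2 fold changes below 0 between the viruses, with a median of -0.30, and none passed the test. For 6 mast cell and basophil genes, of which 1 was tested, it ranged from -2.63 to -1.64. The part of these cells in the histone differences was not tested.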

How the data were processed

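RNA of 2 EMPTY and 2 *Mir195* samples was hybridised to Agilent 4x44K v2 mouse arrays. The deposited scanner files hold an intensity per spot from the authors' scanner software (Feature Extraction 9.1.3.1 in the file headers, 11.5.1.1 in the submitters' processing notes), already corrected for background. Log2 values that the authors normalized to the 75th percentile were deposited too, and correlated with the values used here with r = 0.9978 to 0.9982. How the RNA was primed for labelling is not given in the sources used here, and could affect the signal of RNA without a poly(A) tail.

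Outlier spots (21 to 65 per array of 43020) were left out, and no spot was saturated. Log2 intensities were averaged per probe and reduced by the 75th percentile of the array. The 2 viruses were compared in limma 3.58.1 (lmFit, then eBayes; R 4.3.3), two-sided, with Benjamini-Hochberg adjustment over all 23723 probes. The fit was tested on simulated data. Of the histone probes, those named are all of H1, the 2 highest and 2 lowest of each other class, and those with an unadjusted p under 0.05 or several probes. Others were named for their sequence, annotated span or role, or for arrays that did not overlap, after their values had been seen. Members, lists and alternatives were chosen with earlier results of these data known. Promoters and the microRNA are from RefSeq (GRCm38.p6). Protein sequences were not used here, and some genes of the lists are not reported here.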

Additional observations from a re-analysis of the deposited data

How the results depend on the processing

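The count of histone probes past the threshold was 0 under every alternative: normexp (offset 50), quantile normalization, the median or a percentile over detected probes as scale, the authors' table, looser and stricter filters, leaving out each array, blocking on the replicate number, a robust trend, and the methods' t-test after Benjamini-Hochberg. Over all probes the count was 3 with median scaling, 5 with the replicate block and 1133 for the methods' t-test without adjustment. With 1 array left out it was 0 to 900, the highest without *Mir195* replicate 1 and 3 without *Mir195* replicate 2. The cause was not tested. The labels do not say whether equal replicate numbers pair the samples. The deviations of the 2 viruses correlated with r = -0.101, which with 2 pairs cannot decide it. The replicate block left the histone median at 0.00. With the crossed pairing, chosen after seeing the data, 0 histone probes and 0 of all probes were called.

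The histone median lay between -0.22 and 0.18 when 1 array was left out. It was -0.22 without *Mir195* replicate 1 (6 above 0, 43 below) and 0.18 without *Mir195* replicate 2 (45 above, 4 below). The ranges of the class medians were -0.12 to 0.23 for H1, -0.19 to 0.17 for H2A, -0.25 to 0.17 for H2B, -0.24 to 0.14 for H3 and -0.23 to 0.20 for H4. Among the named probes, *Hist3h2ba* (-0.84 to 0.02) and *Hist1h3c* (-0.40 to 0.03) turned to 0.02 and 0.03 without *Mir195* replicate 2, and the other 271 comparisons kept their direction or lay within a standard error of 0 in the main comparison. *Hist1h2ac* remained above 0 throughout (0.36 to 0.75, lowest adjusted p of limma 0.0765), as did *Hist1h2be* (0.25 to 0.43) and *Hist1h4h* (0.20 to 0.86). These probes were dim, with mean log2 signals with EMPTY of -4.25, -3.72 and -3.34 in that order, though well above background on all 4 arrays. The median replicate differences were 0.13 to 0.21 for EMPTY and 0.26 to 0.51 for *Mir195* under the scalings, filters and background correction tried after seeing the data. Probes that were not above background, such as that of *Hist1h1d*, give no level.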
